A study of Mus musculus with 9 samples.

Results

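The CXC chemokines described here are 9 of the 24346 genes listed for sorted mouse lung macrophages, chosen by name: Cxcl1, Cxcl2, Cxcl3, Cxcl9, Cxcl10, Cxcl13, Cxcl14, Cxcl15 and Cxcl16. RNA was sequenced from 9 samples in 3 groups of 3, all from C57BL/6 mouse lung at postnatal week 10. Ctrl-AM samples were alveolar macrophages of vehicle-control mice, Tumor-AM samples were alveolar macrophages of mice carrying an orthotopic lung tumor, and Tumor-macrophage samples were the other macrophage population of tumor-bearing lungs. The tumor was Lewis lung carcinoma (LLC), a C57BL/6 mouse line, made to express the red protein tdTomato and injected into the left lung in PBS with Matrigel, whereas the controls received PBS. Both kinds of macrophage were sorted from the CD45+ autofluorescent cells of lungs that were not perfused. Alveolar macrophages were taken as Siglec-F+ and F4/80+, and the Tumor-macrophage cells as Siglec-F-, F4/80+ and CD11b+. Differences between the 2 kinds of macrophage therefore include the gate, and the tumor cannot be told apart from whatever else differed between tumor-bearing and vehicle-control mice. Levels are FPKM, in which the reads of a gene are divided by its length and by the sequencing depth, so they can be compared between genes per length.

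Chemokines are small secreted proteins that direct the movement of leukocytes through receptors on the cell surface, and the CXC class is named for the spacing of its first cysteines. Cxcl1, Cxcl2, Cxcl3 and Cxcl15 carry the ELR motif and attract neutrophils, the first 3 through Cxcr2. Cxcl9 and Cxcl10 are induced by interferons and attract activated T and NK cells through Cxcr3, and Cxcl13 attracts B cells through Cxcr5. Cxcl14 is a constitutive chemokine of many epithelia, and Cxcl16 is made as a membrane protein that binds Cxcr6 and is released by the proteases Adam10 and Adam17.

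On the mm10 (GRCm38) annotation 7 of the 9 genes lay on chromosome 5. Cxcl3 (chr5:90786103-90789600), Cxcl15 (chr5:90794534-90803067), Cxcl1 (chr5:90891241-90893115) and Cxcl2 (chr5:90903871-90905938) followed one another on the plus strand. Cxcl9 (chr5:92321347-92328079) and Cxcl10 (chr5:92346638-92348889) lay side by side on the minus strand, and Cxcl13 (chr5:95956951-95961068) was on the plus strand. Cxcl14 (chr13:56288643-56296551) and Cxcl16 (chr11:70453983-70459984) were on the minus strand.

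RefSeq promoters (GRCm38.p6) were matched for 8 of the 9 genes, all but Cxcl16, and 3 motifs were searched on both strands of the 250 bases before each start. The kappaB-type motif was GGGA, any 2 bases, then TTCC, and 1.21% of all 32851 promoters held it. The interferon-response-type motif was TTTC, any 2 bases, then TTTC (2.98% of promoters), and the AP-1-type motif was TGANTCA (6.75%). The 3 neutrophil-attracting genes Cxcl1, Cxcl2 and Cxcl3 each held the same 11 letters, GGGAATTTCCC, in which the kappaB-type motif matches on both strands in overlapping positions. These began 71, 97 and 73 bases before the RefSeq start. Those starts differ from the first bases of the loci given above, so the distances depend on the annotation. The 3 windows below are shown because they share these letters although the 3 genes did not have the same pattern of levels. They run from 120 to 31 bases before the start, 5′ to 3′ on the gene's strand, at chr5:90891125-90891214, chr5:90903779-90903868 and chr5:90785981-90786070, and capitals mark the matches.
Cxcl1: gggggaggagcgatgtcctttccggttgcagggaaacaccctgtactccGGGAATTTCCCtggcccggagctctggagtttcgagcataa
Cxcl2: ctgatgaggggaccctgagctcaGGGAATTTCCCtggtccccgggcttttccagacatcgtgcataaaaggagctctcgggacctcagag
Cxcl3: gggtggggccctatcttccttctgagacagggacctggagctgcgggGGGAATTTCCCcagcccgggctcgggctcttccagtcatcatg

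Cxcl10 held all 3 motifs and is shown for that, from 220 to 31 bases before its start (chr5:92348920-92349109, minus strand, written 5′ to 3′ on that strand). In capitals, in order, stand the interferon-response-type match on the opposite strand at 213, the kappaB-type match at 159 and the AP-1-type match at 74 bases before the start.
Cxcl10: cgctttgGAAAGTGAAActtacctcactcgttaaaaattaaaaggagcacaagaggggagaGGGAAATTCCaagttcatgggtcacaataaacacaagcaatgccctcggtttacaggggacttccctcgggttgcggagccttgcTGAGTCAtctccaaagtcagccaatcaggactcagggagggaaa
The promoter of Cxcl14 held an interferon-response-type match 172 bases before the start. None of the 3 motifs was found in these windows of Cxcl9, Cxcl13 and Cxcl15. A match describes letters and was not tested for binding.

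The depth estimated from the value of 1 read lay between 11000000 and 13900000 reads per sample, and 13922 to 14924 genes were above 0. Of all genes, 10686 reached 1 FPKM in 3 samples or more and were tested, among them 8 of the 9 chemokines. Cxcl15 fell below that filter, and Cxcl13 passed it through the Tumor-macrophage samples alone. Cxcl9 was below 1 FPKM in every Ctrl-AM sample and passed through the samples of the tumor groups. Against either alveolar group, Tumor-macrophage had lower levels of all 10 alveolar macrophage markers and higher levels of all 10 monocyte and interstitial macrophage markers. Of these, Siglecf and Krt79 passed the filter through the alveolar samples alone, and Cx3cr1 only with the Tumor-macrophage samples. The direction of those genes was therefore set in part by the filter. Siglecf and Itgam encode the Siglec-F and CD11b of the sort, so the gate bears on theirs as well. Siglecf averaged 201, 172 and 0.651 FPKM in Ctrl-AM, Tumor-AM and Tumor-macrophage. The 3 comparisons share samples and one estimate of spread. Rescaling to TPM (the same values scaled so that every sample has one total) moved the median change of all genes to -0.11, -0.08 and -0.22 on the log2 scale. The higher and lower calls then were 475 and 824 in place of 760 and 340 for Tumor-AM minus Ctrl-AM, and 2130 and 4409 in place of 2960 and 2900 for Tumor-macrophage minus Ctrl-AM. Quantile normalization gave 607 and 446 in the first of these. No call of a chemokine changed under either scaling.

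**Figure D1:**
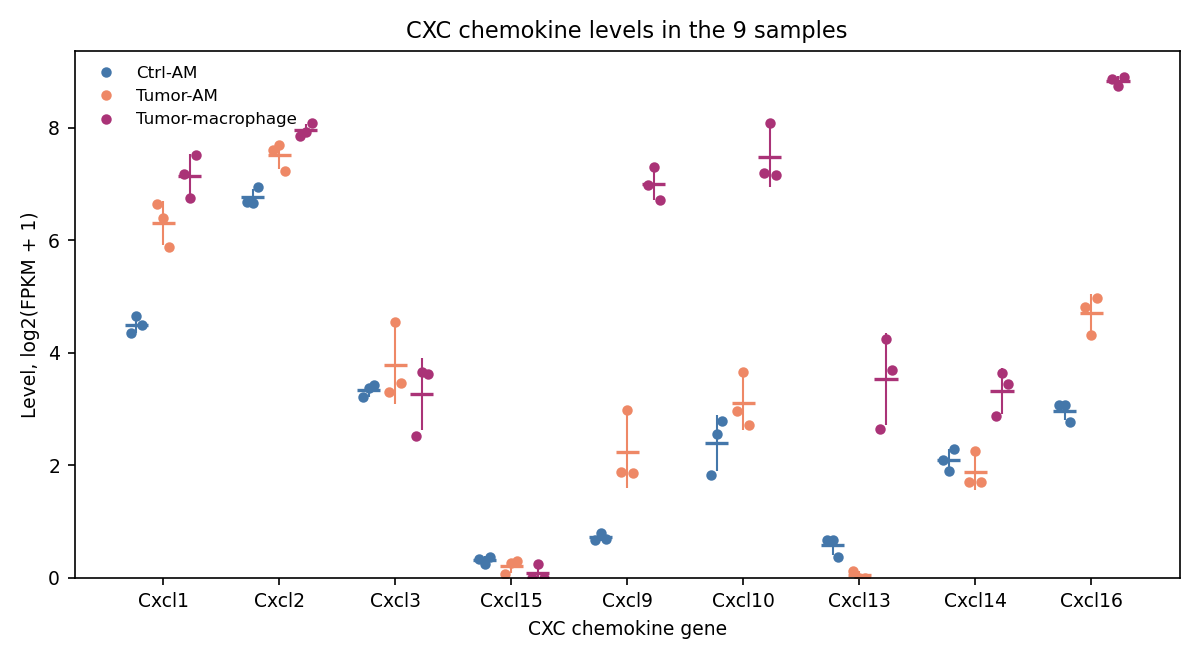
Level of each CXC chemokine gene as log2(FPKM + 1) in the 3 Ctrl-AM, 3 Tumor-AM and 3 Tumor-macrophage samples, as points, with the mean as a horizontal line and the SD as a vertical one. Cxcl9, Cxcl10 and Cxcl16 stand far higher in Tumor-macrophage than in both alveolar groups, whereas Cxcl1 and Cxcl2 climb in steps and the Cxcl3 groups overlap.

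The whole set was lowest in Ctrl-AM and highest in Tumor-macrophage. The summed level of the 9 genes was 155 ± 13.4 FPKM (SD, n = 3) across Ctrl-AM, 317 ± 51.6 across Tumor-AM and 1193 ± 59.3 across Tumor-macrophage. Between the alveolar groups 4 of the 9 genes rose (Cxcl1, Cxcl2, Cxcl9 and Cxcl16), 4 did not pass the test and 1 was below the filter. In that comparison 7.11% of all tested genes were higher and 10.3% changed in either direction. From Tumor-AM to Tumor-macrophage 7 of the 9 genes rose, where 24.2% of all tested genes were higher and 48.6% changed. From Ctrl-AM to Tumor-macrophage the count was again 7 of the 9, where 27.7% of all tested genes were higher and 54.8% changed. Both counts of 7 include Cxcl13, whose direction was set in part by the filter, and 6 of the 7 other tested genes rose in each. Cxcl9, which counts in all 3 comparisons, passed the filter through the tumor groups alone. Its direction against Ctrl-AM was therefore set in part by the filter too. Cxcl3 was the tested gene that passed in none of the 3. Leaving out one sample at a time lowered the number of all genes called in Tumor-AM minus Ctrl-AM from 1100 to as few as 538, without the first Ctrl-AM sample, whereas at least 4 chemokines were called each time. Groups did not overlap for 5, 7 and 7 of the 8 tested genes, beside 32.3%, 55.3% and 62.3% of all tested genes. The median log2 change of the 8 was 0.73, 2.46 and 2.80, and that of all tested genes was 0.0142, 0.00117 and -0.00824.

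**Figure D2:**
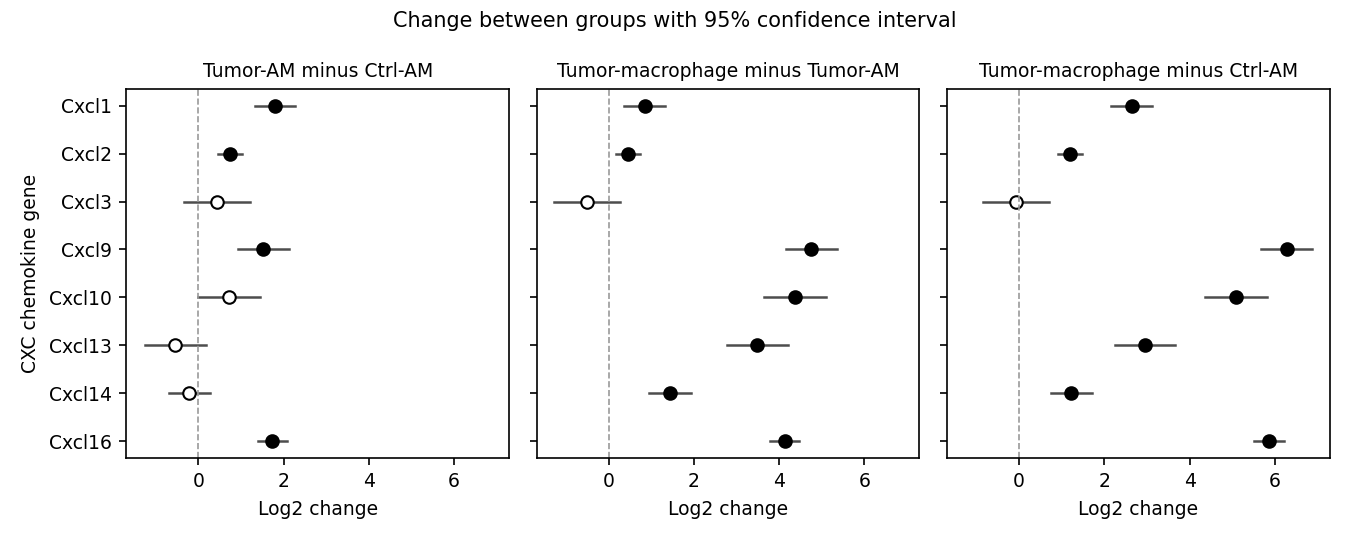
Log2 change of the 8 tested genes, on the log2(FPKM + 1) scale, in each of the 3 comparisons, as a point with its 95% confidence interval as a line. Filled points have an adjusted p under 0.05 and open points do not. In Tumor-AM minus Ctrl-AM 4 points are filled, and Cxcl3 is the one open point in both comparisons with Tumor-macrophage.

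Among the neutrophil-attracting chemokines, Cxcl1 rose most in the alveolar macrophages of tumor-bearing mice. It was at 19.4, 24.2 and 21.7 FPKM across Ctrl-AM, at 99.0, 83.1 and 57.6 across Tumor-AM and at 144, 106 and 182 across Tumor-macrophage. No sample of one group reached into another, and within Tumor-AM the first sample stood highest and the third sample lowest. The rise from Ctrl-AM to Tumor-AM was 3.67-fold by the group means, or 1.80 ± 0.21 on the log2 scale (standard error; limma, Benjamini-Hochberg adjusted p = 0.000904). Tumor-macrophage stood 1.80-fold above Tumor-AM (log2 change 0.84 ± 0.21, adjusted p = 0.0076) and 6.62-fold above Ctrl-AM (2.64 ± 0.21, adjusted p = 1.89e-06).

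Cxcl2 was the most abundant chemokine per length in both alveolar groups. It read 102, 101 and 122 FPKM across Ctrl-AM, 193, 206 and 149 across Tumor-AM and 231, 241 and 271 across Tumor-macrophage. The 3 groups were again separate, with the third Tumor-AM sample the lowest of its group for Cxcl2 as it was for Cxcl1. Its steps were smaller: 1.69-fold from Ctrl-AM to Tumor-AM (log2 change 0.74 ± 0.13, adjusted p = 0.00487) and 1.36-fold from Tumor-AM to Tumor-macrophage (0.45 ± 0.13, adjusted p = 0.0126). The second step lay close to the threshold: without the third Tumor-macrophage sample the log2 change was 0.38 and no longer passed (adjusted p = 0.0507, over a range of 0.00677 to 0.0507 in 18 alternatives), and without the third Tumor-AM sample it was 0.31 and passed (adjusted p = 0.0399). From Ctrl-AM to Tumor-macrophage Cxcl2 rose 2.29-fold (log2 change 1.19 ± 0.13, adjusted p = 1.5e-05).

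Cxcl3 shared the 11 promoter letters of Cxcl1 and Cxcl2 and no called change. It was at 8.24, 9.34 and 9.78 FPKM across Ctrl-AM, at 8.86, 22.4 and 10.1 across Tumor-AM and at 4.77, 11.6 and 11.4 across Tumor-macrophage. All 3 groups overlapped, and the second Tumor-AM sample stood alone. The log2 changes were 0.44 (95% confidence interval -0.34 to 1.21, adjusted p = 0.493), -0.51 (-1.28 to 0.27, adjusted p = 0.259) and -0.07 (-0.84 to 0.71, adjusted p = 0.887) for Tumor-AM minus Ctrl-AM, Tumor-macrophage minus Tumor-AM and Tumor-macrophage minus Ctrl-AM. These intervals still hold changes of over 1 on the log2 scale in the first 2 comparisons. Without the second Tumor-AM sample the first 2 values shrank to 0.05 and -0.12. Leaving out the first Tumor-macrophage sample turned the last value to 0.30 (adjusted p = 0.437, over a range of 0.437 to 0.974). Of the 75-base windows along the annotated transcripts of Cxcl2 and Cxcl3, 101 were identical in both, or 4.57% and 2.78% of each gene's windows. Reads of those windows could not be assigned to one of them. Cxcl3 had 3637 windows over all its transcripts, while its longest coding transcript had 1016 bases, so 2.78% may understate its part. Estimated reads in Ctrl-AM, Tumor-AM and Tumor-macrophage were 7140, 11210 and 14241 for Cxcl2 and 297, 420 and 263 for Cxcl3. The fewer reads of Cxcl3 are thus more open to such sharing, and its size was not tested. Cxcl1 shared no window with another gene.

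Cxcl15 was close to absent. It read 0.255, 0.186 and 0.298 FPKM across Ctrl-AM, 0.0450, 0.208 and 0.228 across Tumor-AM, and 0, 0.182 and 0 across Tumor-macrophage, which is an estimated 19, 12 and 4 reads per group in all. With no filter on low values none of its 3 comparisons passed (adjusted p = 0.6, 0.332 and 0.0642). In the lung Cxcl15 is a product of airway epithelium. The summed level of 10 lung epithelial markers was 76.3 to 224 FPKM across Ctrl-AM, 59.4 to 96.0 across Tumor-AM and 20.6 to 77.5 across Tumor-macrophage. Among the samples of a group, the highest Cxcl15 level and the highest epithelial sum fell together in Tumor-macrophage alone. The part of epithelial RNA in these values was not tested.

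The balance within this group was measured as the ratio of Cxcl1 to Cxcl2, which was 0.190, 0.240 and 0.178 across Ctrl-AM, 0.514, 0.402 and 0.386 across Tumor-AM and 0.624, 0.441 and 0.671 across Tumor-macrophage. Ctrl-AM lay below every tumor sample, while the 2 tumor groups overlapped. By an exact two-sided permutation test the 2 comparisons with Ctrl-AM each gave p = 0.1, the smallest that 3 samples against 3 allow, and Tumor-macrophage against Tumor-AM gave p = 0.2. Adjusted over the 6 ratio tests made, these were 0.15, 0.15 and 0.2.

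Of 10 neutrophil markers, cells that also make Cxcl1 and Cxcl2, 9 were listed and 6 were tested. None rose and 2 fell from Ctrl-AM to Tumor-AM, where 10.3% of all tested genes changed. From Tumor-AM to Tumor-macrophage, where 48.6% changed, 1 of the markers rose and 3 fell. Their summed level was 146 to 175 FPKM across Ctrl-AM, 151 to 214 across Tumor-AM and 95.8 to 145 across Tumor-macrophage, with the granule genes Ngp and Camp at or near 0. S100a8 and S100a9, the subunits of calprotectin that neutrophils hold in large amounts, went opposite ways between the alveolar groups: S100a8 averaged 77.7, 121 and 64.3 FPKM over Ctrl-AM, Tumor-AM and Tumor-macrophage, and S100a9 averaged 25.4, 6.97 and 15.0 FPKM. The part of neutrophils in the Cxcl1 and Cxcl2 levels was not tested. In bulk samples of this kind a change in the make-up of the cells and a change of RNA per cell cannot be told apart.

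The interferon-induced pair, Cxcl9 and Cxcl10, separated the Tumor-macrophage cells from both alveolar groups. Cxcl9 was at 0.604, 0.741 and 0.609 FPKM across Ctrl-AM, at 2.69, 6.95 and 2.62 across Tumor-AM and at 126, 157 and 104 across Tumor-macrophage. The groups were separate, and the second Tumor-AM sample held over 2 times the Cxcl9 of the other two. The rise to Tumor-AM was 6.28-fold (log2 change 1.52 ± 0.27, adjusted p = 0.00628). Without that second sample it was 4.08-fold (log2 change 1.15, adjusted p = 0.00311, over a range of 0.00242 to 0.0291). Tumor-macrophage lay 31.5-fold above Tumor-AM (4.76 ± 0.27, adjusted p = 1.56e-07), or 48.5-fold without the second Tumor-AM sample, and 198-fold above Ctrl-AM (6.28 ± 0.27, adjusted p = 1.51e-08). In Ctrl-AM the level rested on an estimated 70 reads in all 3 samples together. All 3 were below the 1 FPKM of the filter, which Cxcl9 passed through the tumor groups alone. The direction of its 2 changes against Ctrl-AM was therefore set in part by the filter.

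Cxcl10 was at 2.56, 4.88 and 5.92 FPKM across Ctrl-AM, at 6.78, 11.6 and 5.56 across Tumor-AM and at 146, 270.5 and 142 across Tumor-macrophage. Here the alveolar groups overlapped, since the third Tumor-AM sample read below the highest Ctrl-AM sample, and the second Tumor-macrophage sample stood well above its group. Between the alveolar groups the log2 change of 0.72 did not pass (95% confidence interval -0.000291 to 1.44, adjusted p = 0.204). Tumor-macrophage lay 23.3-fold above Tumor-AM (log2 change 4.37 ± 0.32, adjusted p = 1.17e-06) and 41.7-fold above Ctrl-AM (5.09 ± 0.32, adjusted p = 2.81e-07). Cxcl10 lies inside Art3, which runs on the opposite strand and averaged 0 FPKM in both alveolar groups and at most 0.516 in a Tumor-macrophage sample.

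The ratio of Cxcl9 to Cxcl10 was 0.236, 0.152 and 0.103 across Ctrl-AM, 0.397, 0.598 and 0.472 across Tumor-AM and 0.867, 0.579 and 0.734 across Tumor-macrophage. As with Cxcl1 and Cxcl2, Ctrl-AM lay below every tumor sample and the tumor groups overlapped. The exact permutation tests gave p = 0.1 for Tumor-AM against Ctrl-AM and for Tumor-macrophage against Ctrl-AM, and p = 0.2 for the tumor groups, all within the 6 tests above.

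Cxcl13 was above 1 FPKM in the Tumor-macrophage samples alone, at 5.27, 18.1 and 11.9. It read 0.597, 0.598 and 0.299 FPKM across Ctrl-AM and 0.0906, 0 and 0 across Tumor-AM, an estimated 19 and 1 reads in all. The 3 groups did not overlap, and Tumor-AM, not Ctrl-AM, was the lowest. Tumor-macrophage lay 23.6-fold above Ctrl-AM (log2 change 2.95 ± 0.32, adjusted p = 1.88e-05), and its log2 change over Tumor-AM was 3.49 ± 0.32 (adjusted p = 6.26e-06). Because Cxcl13 passed the filter through the Tumor-macrophage samples, the direction of these 2 changes was set in part by the filter. The drop from Ctrl-AM to Tumor-AM did not pass (log2 change -0.53, 95% confidence interval -1.24 to 0.17, adjusted p = 0.346). It did pass with a pseudocount of 0.1 (-2.22, adjusted p = 0.0178) and when the 2 alveolar groups were fitted alone (-0.53, adjusted p = 0.0443), over a range of 0.0178 to 0.545. At 20 reads or fewer per group its size is poorly fixed.

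All 4 tested B cell markers were higher in Tumor-macrophage than in Tumor-AM (24.2% of all tested genes were) and Ctrl-AM (27.7%). The summed level of the 5 on the list was 12.7 to 16.9 FPKM across Ctrl-AM, 3.15 to 7.49 across Tumor-AM and 58.3, 31.5 and 48.5 in the 3 Tumor-macrophage samples. Across these 3 the order was the reverse of Cxcl13, which was lowest in the first sample and highest in the second. B cell markers and Cxcl13 had the same order of the 3 groups, and the part of B cells in the Cxcl13 level was not tested. Of the dendritic cell markers, 3 of the 5 tested rose from Tumor-AM to Tumor-macrophage, with a summed level of 7.81 to 14.9 FPKM before and 25.2 to 56.5 after, and of the endothelial markers 1 of the 3 tested rose, at 4.11 to 13.0 and 6.51 to 13.6 FPKM.

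Cxcl14 was low in alveolar macrophages and higher in Tumor-macrophage. It was at 3.27, 2.73 and 3.88 FPKM across Ctrl-AM, at 2.24, 3.79 and 2.25 across Tumor-AM and at 6.32, 11.5 and 9.94 across Tumor-macrophage. The alveolar groups overlapped and every Tumor-macrophage sample lay above them. The log2 change between the alveolar groups was -0.21 (95% confidence interval -0.70 to 0.28, adjusted p = 0.627). Tumor-macrophage lay 3.35-fold above Tumor-AM (1.44 ± 0.22, adjusted p = 0.000296) and 2.81-fold above Ctrl-AM (1.23 ± 0.22, adjusted p = 0.000759). Fibroblasts and epithelium are known sources of Cxcl14. The 8 fibroblast markers summed to 15.0 to 30.0 FPKM across Ctrl-AM, 16.4 to 98.6 across Tumor-AM and 18.6 to 28.4 across Tumor-macrophage, and the Tumor-AM sample at 98.6, the third, had a Cxcl14 level of 2.25. Of the 4 tested fibroblast markers, 2 rose from Ctrl-AM to Tumor-AM, beside 7.11% of all tested genes. None of the 4 changed from Tumor-AM to Tumor-macrophage, where 3 of the 7 tested epithelial markers fell. In that comparison 48.6% of all 10686 tested genes changed, and 2603 fell. From Ctrl-AM to Tumor-macrophage 1 of the 4 fibroblast markers rose and 2 of the 7 epithelial markers fell. There 54.8% of all tested genes changed, 27.7% were higher and 2900 fell. The part of fibroblasts and epithelium in the Cxcl14 level was not tested.

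Cxcl16 rose in all 3 comparisons. It was at 7.38, 7.39 and 5.86 FPKM across Ctrl-AM, at 27.2, 19.0 and 30.6 across Tumor-AM and at 463, 426 and 479 across Tumor-macrophage, where it was the most abundant of the 9 genes. The groups lay far apart, and the coefficient of variation within Tumor-macrophage was 5.95%, the lowest of the 9. The rise from Ctrl-AM to Tumor-AM was 3.72-fold (log2 change 1.74 ± 0.15, adjusted p = 0.000211), that from Tumor-AM to Tumor-macrophage 17.8-fold (4.13 ± 0.15, adjusted p = 7.5e-09), and the 2 together 66.3-fold (5.86 ± 0.15, adjusted p = 4.59e-10). The start of Cxcl16 overlaps the start of Zmynd15 on the opposite strand (chr11:70459433-70459984), and 15.4% of the 75-base windows of Cxcl16 lay in both. Zmynd15 moved the same way, at 0.193 to 0.596 FPKM across Ctrl-AM, 0.861 to 2.08 across Tumor-AM and 53.7 to 59.9 across Tumor-macrophage. The library kit does not mark strand, so reads of the shared stretch cannot be assigned to either gene, although the remaining windows of Cxcl16 belonged to it alone.

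The order of the genes by level changed between the groups. In Ctrl-AM it ran Cxcl2, Cxcl1, Cxcl3, Cxcl16, Cxcl10, Cxcl14, Cxcl9, Cxcl13 and Cxcl15, and the samples of neighbours overlapped for Cxcl16 with Cxcl10 and for Cxcl10 with Cxcl14. In Tumor-AM it ran Cxcl2, Cxcl1, Cxcl16, Cxcl3, Cxcl10, Cxcl9, Cxcl14, Cxcl15 and Cxcl13, and from Cxcl16 to Cxcl14 every neighbour overlapped the next, as did Cxcl15 and Cxcl13. In Tumor-macrophage it ran Cxcl16, Cxcl2, Cxcl10, Cxcl1, Cxcl9, Cxcl13, Cxcl14, Cxcl3 and Cxcl15. There the overlaps ran from Cxcl2 to Cxcl9 and from Cxcl13 to Cxcl3.

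As a share of the summed FPKM, Cxcl2 held 69.7 ± 2.57% (SD, n = 3) of the set across Ctrl-AM, 57.6 ± 0.84% across Tumor-AM and 20.8 ± 1.50% across Tumor-macrophage. Cxcl1 took 14.1, 25.0 and 12.1%, so that its share peaked in Tumor-AM although its level was highest in Tumor-macrophage. Cxcl16 went from 4.48 ± 0.906% to 8.41 ± 3.25% and 38.3 ± 3.58%. Cxcl9 and Cxcl10 held 0.422 and 2.83% across Ctrl-AM, 1.26 and 2.48% across Tumor-AM and 10.8 and 15.5% across Tumor-macrophage. Alveolar macrophages of both kinds thus carried mostly neutrophil-attracting transcripts, and Tumor-macrophage a mixture led by Cxcl16.

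**Figure D3:**
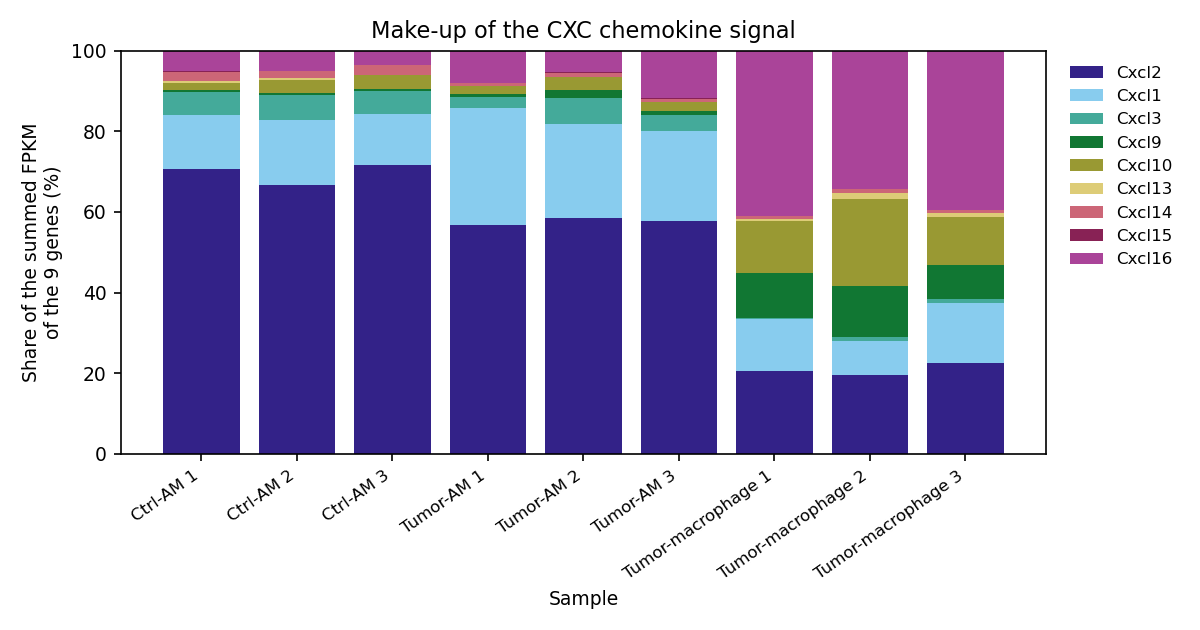
Share of each gene in the summed FPKM of the 9 CXC chemokines (%), 1 bar per sample. Cxcl2 makes up 56.7 to 71.6% of the 6 alveolar bars and 19.4 to 22.4% of the 3 Tumor-macrophage bars, where Cxcl16 takes 34.3 to 41.1%.

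Samples of one group did not rank alike for every gene. In Tumor-AM the second sample was the highest for Cxcl2, Cxcl3, Cxcl9, Cxcl10 and Cxcl14 and the lowest for Cxcl16. In Tumor-macrophage the second sample was the highest for Cxcl3, Cxcl9, Cxcl10, Cxcl13 and Cxcl14 and the lowest for Cxcl1 and Cxcl16. The coefficient of variation of Cxcl9 was 60.6% across Tumor-AM, against 11.9% across Ctrl-AM. Across Tumor-AM it was larger for Cxcl13 (173%) and Cxcl15 (62.6%), both near 0 FPKM there.

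The rises in Tumor-AM were also set against those of monocyte and interstitial macrophage markers. Of these 10, beside 7.11% of all tested genes, 9 rose from Ctrl-AM to Tumor-AM as well. Their summed level was 339 to 407 FPKM across Ctrl-AM, 707 to 1008 across Tumor-AM and 15471 to 16279 across Tumor-macrophage. Each gene's rise was expressed as a percent of the gap between its Ctrl-AM and Tumor-macrophage means, a measure chosen after the data were seen. Cxcl1 covered 47.5% of its gap (29.3 to 63.1% over the 3 Tumor-AM samples) and Cxcl2 53.4% (29.3 to 70.4%). Cxcl16 covered 4.17% (2.70 to 5.27%) and Cxcl9 2.68% (1.54 to 4.91%). Among the 10 markers the median was 1.30%. The complement genes C1qa, C1qb and C1qc, strongly expressed by interstitial and tumor macrophages, covered 0.331, 0.532 and 0.335%. The monocyte receptor Ccr2 covered 7.07%, Ly6c2 5.05% and Cd14, which alveolar macrophages also express, 44.2%. Cxcl1 and Cxcl2 thus rose by a far larger part of their gap than 9 of the 10 markers, while Cxcl9 and Cxcl16 lay within the range of the markers. The part of Tumor-macrophage RNA in the Tumor-AM samples was not tested.

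**Figure D4:**
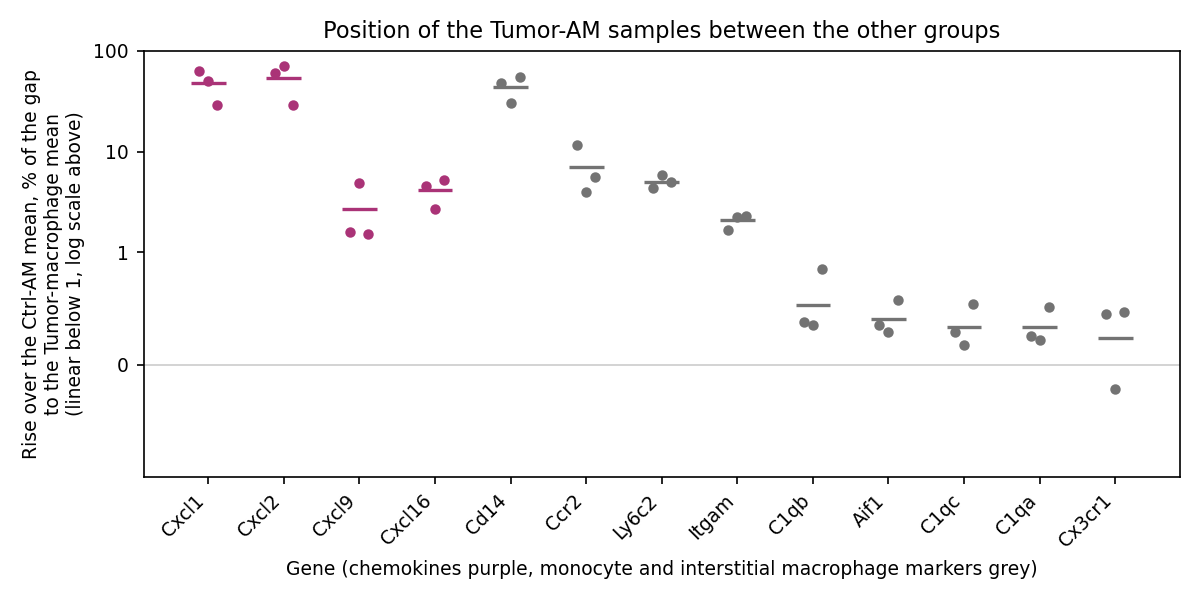
Rise of each Tumor-AM sample over the Ctrl-AM mean as a percent of the gap to the Tumor-macrophage mean (points, linear below 1 and logarithmic above), with the value of the group mean as a line, for the 4 chemokines that rose in Tumor-AM and for 9 monocyte and interstitial macrophage markers. Cxcl1 and Cxcl2 lie near 47.5 and 53.4%, beside Cd14, and Cxcl9 and Cxcl16 lie among Ccr2, Ly6c2 and Itgam.

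Of the 6 other CXC ligands, only Pf4 (Cxcl4), a chemokine of platelets and some macrophages, passed the filter. It averaged 4.61, 6.87 and 466 FPKM in Ctrl-AM, Tumor-AM and Tumor-macrophage, beside 456 FPKM for Cxcl16 in the last. Its log2 change was 0.47 between the alveolar groups (adjusted p = 0.296) and 5.86 ± 0.26 from Tumor-AM to Tumor-macrophage (adjusted p = 2.47e-08). The platelet chemokine Ppbp averaged 0.323, 0.0279 and 2.30 FPKM. Cxcl11, named for the remaining ligand of Cxcr3, is itself annotated as a polymorphic pseudogene, so its RNA does not imply a working protein. It was listed at 0 in all Ctrl-AM samples and averaged 0.0353 in Tumor-AM and 1.25 in Tumor-macrophage. Of its 75-base windows, 39.8% were shared with the pseudogene Gm2673. Cxcl5, Cxcl12 and Cxcl17 stayed below 1 FPKM in every group mean.

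Of the 8 CXC receptors 6 were tested, and none passed between the alveolar groups. Cxcr1 and Cxcr2 fell from Tumor-AM to Tumor-macrophage, where 48.6% of all tested genes changed. Cxcr1 went from a mean of 5.27 to 0.0618 FPKM (log2 change -2.51 ± 0.24, adjusted p = 8.77e-06) and Cxcr2 from 5.10 to 2.42 FPKM (-0.83 ± 0.13, adjusted p = 0.000373). Cxcl1 and Cxcl2, which act through Cxcr2, rose in the same comparison. Cxcr3 rose from 0.547 to 4.65 FPKM (1.79 ± 0.27, adjusted p = 0.000253), beside its ligands Cxcl9 and Cxcl10, and Cxcr5 from 0.413 to 2.75 FPKM (1.39 ± 0.22, adjusted p = 0.000408), beside its ligand Cxcl13. Cxcr3 and Cxcr5 passed the filter only with the Tumor-macrophage samples, and Cxcr1 only with the alveolar ones, so the direction of these 3 was set in part by the filter. Cxcr4, the Cxcl12 receptor, rose from 13.1 to 30.8 FPKM. Cxcr6, the Cxcl16 receptor, averaged 0.841, 1.84 and 2.39 FPKM and passed in no comparison. Cxcr3, Cxcr5 and Cxcr6 are also carried by T and B cells. Of the T and NK cell markers Cd3d, Cd3e and Cd3g averaged 3.29, 2.06 and 4.83 FPKM in Tumor-macrophage and 1.21, 1.15 and 2.25 in Tumor-AM, and 3 of the 7 tested markers rose and 1 fell. That one was Cd2, at 438 and 18.9 FPKM, which set the summed level of this list at 420 to 480 FPKM across Tumor-AM, 34.3 to 64.7 across Tumor-macrophage and 501 to 529 across Ctrl-AM.

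The 5 proteases that cut chemokines were all higher in Tumor-macrophage than in Tumor-AM, beside 24.2% of all tested genes. Adam10, which sheds Cxcl16 from the membrane, was the one that also rose from Ctrl-AM to Tumor-AM, from a mean of 25.0 to 35.1 FPKM (log2 change 0.47 ± 0.08, adjusted p = 0.00376), and reached 44.5 FPKM in Tumor-macrophage. Adam17 averaged 39.2, 43.0 and 79.0 FPKM. Mmp9, which trims neutrophil chemokines, rose from 0.478 to 10.3 FPKM between the tumor groups (2.90 ± 0.22, adjusted p = 1.54e-06), and Mmp12 from 13.7 to 63.4 FPKM. Dpp4, which clips Cxcl9 and Cxcl10, stayed low at 0.481 and 1.89 FPKM. Mmp9 and Dpp4 were below 1 FPKM in all 6 alveolar samples and passed the filter through Tumor-macrophage alone, which set the direction of their change in part.

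In the interferon gamma list 9 of 10 genes were tested. From Ctrl-AM to Tumor-AM 4 rose and none fell, beside 7.11% of all tested genes higher. Among the 4 were the receptor chain Ifngr2, the transcription factor Irf1 and the guanylate-binding protein Gbp2. Irf1 went from a mean of 38.8 to 87.9 FPKM (log2 change 1.13 ± 0.18, adjusted p = 0.0039) and Gbp2 from 9.46 to 25.4 FPKM (1.33 ± 0.24, adjusted p = 0.00666). From Tumor-AM to Tumor-macrophage 8 rose, beside 24.2% of all tested genes, with Gbp2 at 204 FPKM (2.97 ± 0.24, adjusted p = 2.36e-06) and the feedback inhibitor Socs1 at 12.6 FPKM. From Ctrl-AM to Tumor-macrophage all 9 rose, beside 27.7% of all tested genes. Socs1 and Gbp5, which count among these, passed the filter only with the Tumor-macrophage samples. Jak1 was the one that did not pass between the tumor groups (0.11, adjusted p = 0.358). Ifng itself was below the filter at 0.0238, 0.144 and 0.456 FPKM. The median log2 change of the 9 was 0.41, 1.42 and 2.04 in Tumor-AM minus Ctrl-AM, Tumor-macrophage minus Tumor-AM and Tumor-macrophage minus Ctrl-AM.

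All 12 genes of the NF-kappaB list were tested. From Ctrl-AM to Tumor-AM, where 7.11% of all tested genes were higher, 6 rose and none fell. These were Nfkb2, the inhibitors Nfkbia, Nfkbie and Tnfaip3, the nuclear regulator Nfkbiz and the cytokine Il1b. Il1b went from a mean of 70.7 to 390.4 FPKM (log2 change 2.45 ± 0.25, adjusted p = 0.000383) and Tnfaip3 from 31.4 to 73.0 FPKM (1.19 ± 0.18, adjusted p = 0.00271). Neither passed from Tumor-AM to Tumor-macrophage, where Il1b averaged 477 FPKM (0.26, adjusted p = 0.413) and Tnfaip3 77.0 FPKM (0.06, adjusted p = 0.802). In that comparison 6 of the 12 rose, where 24.2% of all tested genes were higher and 48.6% changed. Nfkbie (1.98 ± 0.11) and Nfkbiz (1.83 ± 0.10) had the largest log2 changes. From Ctrl-AM to Tumor-macrophage 10 rose, where 27.7% of all tested genes were higher and 54.8% changed. Tnf passed in none of the 3 comparisons, at 36.5, 28.1 and 34.1 FPKM. The median log2 change of the 12 was 0.31, 0.33 and 0.84.

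The tested genes whose pattern over the 9 samples was nearest to each chemokine were found by the root mean square difference of log2(FPKM + 1), each gene centred on its own mean, among 10685 genes. Nearest to Cxcl2 were Hk2, a hexokinase, at 0.155 and Dusp10, a phosphatase of MAP kinases, at 0.165. Nearest to Cxcl14 were Ifit3b, an interferon-induced gene, at 0.192 and Ptges3l at 0.215, and to Cxcl16 Pdlim4 at 0.198 and Cpq at 0.226. Nearest to Cxcl1 were Gng12 (0.25) and Sik1 (0.348), and to Cxcl3 Cav2 (0.304) and Rnf121 (0.305). Nearest to Cxcl9 were Pla2g7 (0.295) and Itgam (0.341), which encodes the CD11b used in the sort, and to Cxcl10 1700071M16Rik (0.336) and Lacc1 (0.367). Nearest to Cxcl13 were Fxyd2 (0.291) and Gm15056 (0.341). No chemokine of the set was among the nearest 2 of another.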

How the data were processed

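Total RNA of sorted cells was copied with the SMART-Seq HT kit, which does not mark strand, and sequenced as 75-base single-end reads. The authors aligned the reads to mm10 with TopHat2 2.1.1 and Bowtie2 and deposited 1 table of FPKM per gene and sample, made with Cuffdiff 2.2.1 per the labels. The annotation they counted on is not given in the sources used here.

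From the deposited FPKM, log2(FPKM + 1) was fitted with limma 3.58.1 in R 4.3.3 (group means over all 9 samples, trended prior variance, two-sided, Benjamini-Hochberg over 10686 genes with FPKM of at least 1 in at least 3 samples, threshold 0.05). Fold changes on this scale understate the change of low genes; folds in the text are ratios of mean FPKM. The fit was tested on simulated data. The members and lists were chosen with earlier results of these data known. Named genes were the 9 chemokines, the listed genes of their pathway and of 9 cell types, and the 2 nearest patterns to each tested chemokine. Some genes of these lists count in their totals and are not reported here by name.

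The files hold no counts. Depth and reads were estimated from the value of 1 read in genes with 1 transcript, where 19.9 to 27.9% of low values sat within a tolerance of 0.03 of it. The study gives each population as drawn from separate mice, which the labels do not state, and neither says whether same-numbered Tumor-AM and Tumor-macrophage samples share a mouse. The alternatives were 0.1 as pseudocount, no filter or FPKM of at least 5, quantile, TPM and median-ratio scaling, a constant prior, the 2 compared groups alone, a replicate block and leaving out each sample.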

Additional observations from a re-analysis of the deposited data

How the results depend on the processing

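Over 18 alternatives the number of CXC chemokines past the threshold stayed at 4 to 5 for Tumor-AM minus Ctrl-AM, 6 to 7 for Tumor-macrophage minus Tumor-AM and 7 for Tumor-macrophage minus Ctrl-AM. Of 432 values of single genes, 428 kept their direction and side of the threshold. Another filter, a constant prior, the 2 groups alone, the block and leaving out a sample of the uncompared group cannot alter a log2 change. In these settings the direction was fixed, and only the adjusted p could move. The exceptions were Cxcl13 in Tumor-AM minus Ctrl-AM, past the threshold at -2.22 with a pseudocount of 0.1 and at -0.53 with the 2 groups alone, Cxcl2 in Tumor-macrophage minus Tumor-AM, at 0.38 without Tumor-macrophage sample 3, and Cxcl3 in Tumor-macrophage minus Ctrl-AM, which turned from -0.07 to 0.30 without Tumor-macrophage sample 1 (-0.26 to 0.30 over the samples left out in turn). The genes called in Tumor-AM minus Ctrl-AM numbered 1100, and 538, 690 and 549 without Ctrl-AM samples 1, 2 and 3, or 733 and 674 without Tumor-AM samples 1 and 3. With the replicate number as a block 4, 7 and 7 chemokines were called, and no chemokine's call changed, with 938, 5069 and 5772 genes called in all. After removal of group means, same-numbered samples correlated at -0.0615 to 0.159 for Tumor-AM and Ctrl-AM, -0.00845 to 0.0487 for Tumor-macrophage and Ctrl-AM and 0.0260 to 0.109 for Tumor-macrophage and Tumor-AM, so the bar of 0.1 in every pair was not met. In the last, every sample correlated best with its own number (-0.101 to 0.00617 between different numbers), a hint from the data and not from the design. Cxcl13 and Cxcl15 in the alveolar groups rest on 1 to 19 estimated reads a group, which limits their values.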
